A study of Saccharomyces cerevisiae with 72 samples.

Results

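The comparison of T99N with wild type at 3 h sets a yeast strain whose Ume6 carries the T99N substitution against a strain with wild-type Ume6, 1 h after copper was added to switch on meiotic entry. It was chosen by strain and time from the sample titles and used 6 of the 72 samples of the series, 3 replicates of each strain, with RNA-seq counts for all 5498 features of the salmon index (5424 SK1 coding sequences and 74 regions that cover 5′ extensions of transcripts). Of these features 5488 had enough reads to be tested. The T99N strain (UB22629) was an SK1 diploid, homozygous for a KANMX-marked pCUP1-3HA-*IME1* at *irt1*, for pCUP-*IME4* marked with NAT and for *UME6*(T99N) with a 3V5 tag and KanMX. The wild-type strain (UB20649) was an SK1 diploid with pCUP1-3HA-*IME1* (KANMX), pCUP1-3HA-*IME4* (KANMX) and *UME6*-3V5 (His3MX). Both strains therefore carried copper-driven *IME1* and *IME4* and a tagged *UME6*, and both were grown in reduced YPD, moved to sporulation medium and given 50 µM CuSO4 after 2 h, so that 1 h of copper had passed when the cells were collected at 3 h. Each genotype was 1 strain, and the strains also differed in the *IME4* construct and in markers, so the T99N allele and these differences cannot be told apart here. No sample without copper was collected at 3 h among those analysed. The labels do not say whether replicates came from separate cultures, so the p-values measure only the spread between these samples.

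Ume6 is a zinc cluster DNA-binding protein that recognizes a short GC-rich element called URS1. In growing cells it recruits the Rpd3 histone deacetylase and the Isw2 remodeler and represses early meiotic genes. When diploid cells starve, the activator Ime1 is made and acts through Ume6 at URS1, and the early meiotic genes that follow carry out premeiotic DNA replication, recombination and chromosome pairing. The T99N substitution lies in the part of Ume6 that contacts Ime1 and impairs that contact, while repression in growing cells is retained. Ime4 is an RNA methyltransferase that promotes meiotic entry. A URS1 core can also lie upstream of a distal start site, where it drives a 5′-extended transcript of a gene that has its own proximal promoter, and such an extended transcript can be poorly translated and can accompany loss of the shorter mRNA.

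The URS1 cores upstream of the most lowered meiotic genes are shown because they are the sites through which Ume6 and Ime1 are known to act at genes of this class. They were found by a search for GCCGCC on either strand within 500 bp upstream of the start codon in the S288C genome of RefSeq (build R64), not in SK1, so that the SK1 bases may differ. Each line gives 24 bases read 5′ to 3′ on the strand that carries the core, with the core in capitals.
HOP1: tacaatttaGCCGCCcaggttaaa
MEK1: aatgaaataGCCGCCgaaatttag
MEI5: aaagtattaGCCGCCcaaacttct
DMC1: cggaaaataGCCGCCcaaggataa
MER1: cgcattttaGCCGCCgacagtgtt
REC8: tattggtttGCCGCCgaagtcaag
In R64 these windows lie at chrIX:226422-226445 (minus strand) for *HOP1*, chrXV:996631-996654 (plus) for *MEK1*, chrXVI:321742-321765 (minus) for *MEI5*, chrV:548274-548297 (plus) for *DMC1*, chrXIV:250812-250835 (plus) for *MER1* and chrXVI:571548-571571 (plus) for *REC8*. The cores start between 110 bp (*MER1*) and 184 bp (*REC8*) from the start codon, and *MEK1* has 2 of them. Of all 5424 coding sequences, 509 (9.38%) had such a core in the same window. Of the 10 coding sequences with the largest falls at 3 h it was present at 6, which are *HOP1*, *MEK1*, *MEI5*, *DMC1*, *MER1* and *HRT1* (439 bp from the start codon, not shown), and it was present at 0 of the 10 with the largest rises. *REC8*, an axis gene, is not among these 10.

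Libraries held between 7504008 and 8360944 reads in T99N and between 11133096 and 18799665 in wild type at 3 h. Levels are given as CPM, read counts scaled to a common library total after TMM normalization, and the totals count reads assigned to features. Log2 CPM values of the libraries correlated at 0.97 to 0.98 within T99N, at 0.96 to 0.99 within wild type and at 0.84 to 0.88 between the strains (Pearson's r across features, a description only). A pair of libraries stood apart. The library labelled wild-type replicate 3 resembled T99N at many features that separate the strains at other times: of 46 features with a gap of over 2-fold between all libraries of the strains at 0 h and 2 h, 42 were on the T99N side of the midpoint in it, against 20 and 23 in wild-type replicates 1 and 2, and 45 to 46 in the T99N libraries. *HOP1*, *MEK1* and *DMC1*, by contrast, were at 1655, 345 and 1036 CPM in it, as in the other wild-type libraries. It also had fewer reads in coding sequences of up to 300 bp, which held 0.841% of its reads against 1.42% and 1.19% in replicates 1 and 2 and 0.862% to 0.974% in T99N. T99N replicate 1 had 1870 CPM of *IME1* already at 2 h, before copper by its label. Replicates 2 and 3 had 74.5 and 91.2 CPM. Its 2 h library also had 426 CPM of the copper metallothionein gene *CUP1-2*, against at most 19.4 CPM in replicates 2 and 3. At 3 h, after copper, *CUP1-2* was at 296 to 614 CPM in T99N. Whether this 2 h library had received copper was not tested. It is part of the 2 h group in the comparisons and interactions below, unless left out. At 3 h T99N replicate 1 had the highest level of many glycolytic and copper uptake genes. Cells were sampled in bulk, so that fewer cells of a type and less RNA per cell cannot be told apart.

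A large part of the transcriptome differed between the strains at 3 h. In edgeR's quasi-likelihood test at an adjusted p under 0.05, 3129 of the 5488 tested features (57%) were called, 1615 lower in T99N (29.4%) and 1514 higher (27.6%). The median log2 fold change over all features was −0.01. With a further requirement of an absolute log2 fold change above 1, 491 features were lower (8.95%) and 556 higher (10.1%). Every T99N library lay below every wild-type library at 28.1% of features and above every one at 27.1%. The balance of directions rests on the TMM scaling, which assumes that most features do not change: with library totals alone, 2237 features were lower and 845 higher, which is 72.6% of calls against 51.6%, and the median of all features shifted to −0.29. Without the library labelled wild-type replicate 3, 2907 of the 3129 were called in the same direction and 0 turned, and with that library as the only wild-type one, 1907 were called in the same direction.

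**Figure D1:**
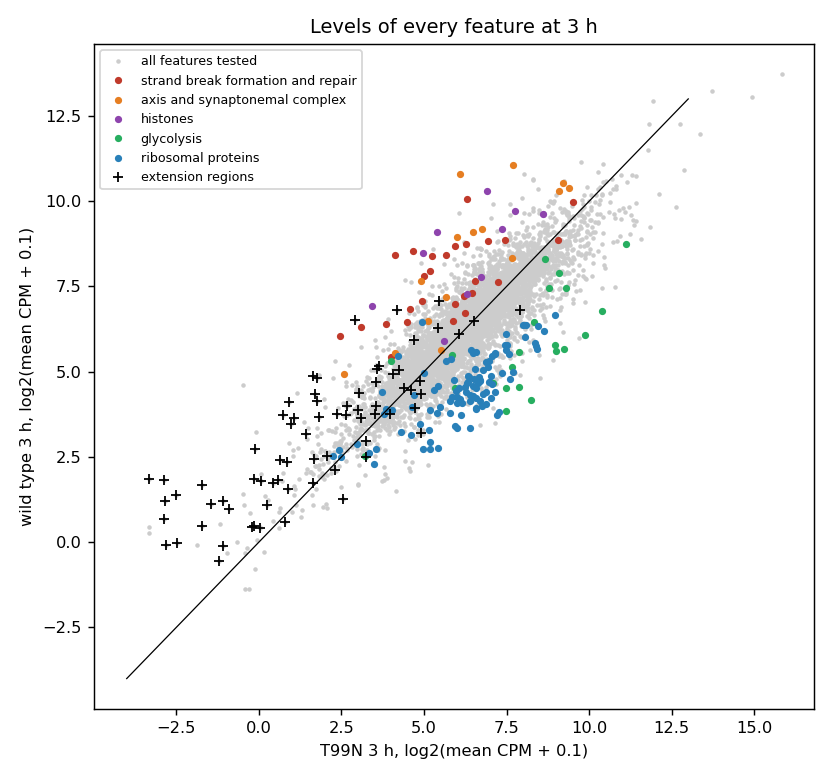
Level of each tested feature at 3 h, with log2(mean CPM + 0.1) of the 3 T99N libraries on the x axis and of the 3 wild-type libraries on the y axis. Points are features, colored by group, and the line marks equal levels. Most strand break genes (25 of 27 called lower), axis genes and extension regions lie above the line, while most ribosomal protein genes (90 of 104 called higher) and glycolytic genes lie below it.

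*IME1* and *IME4*, which copper drives in both strains, were at a higher level in every T99N library than in every wild-type library, and the difference passed the test for *IME4*. *IME1* (YJR094C), the activator, was at 1649, 3670 and 2913 CPM in T99N and at 694, 920 and 1320 CPM in wild type. Its log2 fold change of 1.49 (standard error, SE, 0.70) did not pass the test (adjusted p = 0.076, edgeR, n = 3 each). *IME4* (YGL192W), the methyltransferase, was at 1099, 2592 and 1764 CPM in T99N and at 319, 451 and 600 CPM in wild type. It was higher in T99N by 1.99 on the log2 scale (SE 0.65, adjusted p = 0.012, edgeR), and with the library labelled wild-type replicate 3 as the only wild-type one it was not called (1.65, adjusted p = 0.20, edgeR). The *IME4* constructs differ between the strains by their labels. In T99N replicate 1, *IME1* and *IME4* were as high at 2 h as at 3 h, with *IME4* at 1271 CPM at 2 h against 74.5 and 87.8 CPM in replicates 2 and 3.

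*UME6* (YDR207C), counted over both tagged alleles without telling them apart, was lower in T99N at 3 h although it had been higher at 2 h. At 3 h it was at 610, 487 and 723 CPM in T99N and at 987, 1314 and 2378 CPM in wild type, with no overlap. The log2 fold change was −1.36 (SE 0.25, adjusted p = 1.1e-04, edgeR), and −0.92 without the library labelled wild-type replicate 3. At 2 h it had been at 486, 780 and 785 CPM in T99N and at 189, 230 and 215 CPM in wild type, a log2 fold change of 1.69. The strain difference at 3 h was thus lower than that at 2 h by 3.06 on the log2 scale (interaction −3.06, SE 0.36, adjusted p = 6.3e-07, edgeR). The counts cover the coding sequence, in which a single base change cannot be seen, so they do not check the allele itself.

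**Figure D2:**
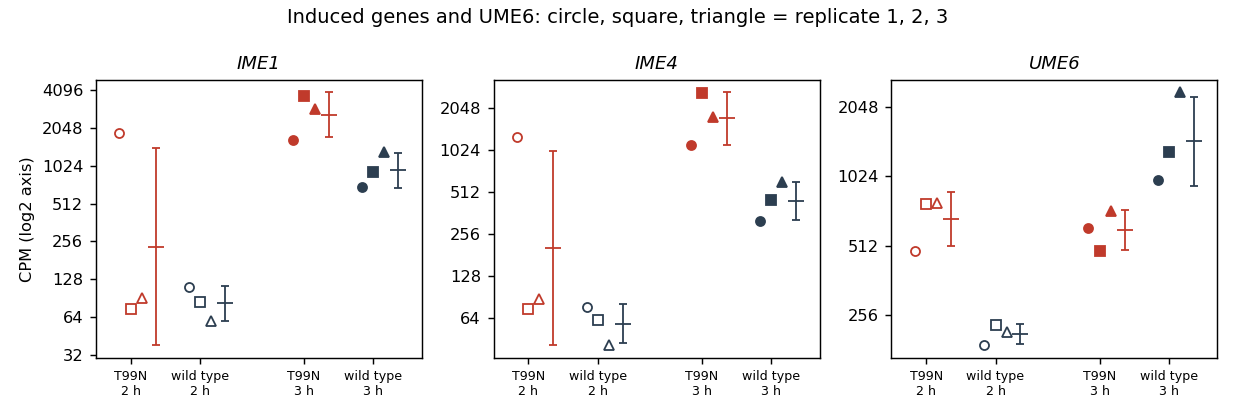
CPM of *IME1*, *IME4* and *UME6* on a log2 axis, T99N left of wild type at 2 h (open) and 3 h (filled), with circle, square and triangle for replicates 1, 2 and 3. The dash and whiskers give the geometric mean and 1 SD on the log2 scale (n = 3). *UME6* is higher in T99N at 2 h and lower at 3 h, and T99N replicate 1 has high *IME1* and *IME4* at 2 h.

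Genes for making and repairing meiotic DNA double-strand breaks were broadly lower in T99N. Of the 27 measured, 25 were lower and 0 higher, with a median log2 fold change of −2.14, against −0.01 and 29.4% lower over all features. *MEK1* (YOR351C), the kinase that keeps breaks from being repaired with the sister chromatid, was at 16.8, 18.7 and 15.9 CPM in T99N and at 308, 378 and 345 CPM in wild type. It fell by 4.33 on the log2 scale (SE 0.19, adjusted p = 4.8e-13, edgeR), with the strains far apart. Its coding sequence overlaps the extension region of *MNE1* on the same strand, so reads there cannot be told apart.

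*DMC1* (YER179W), the meiosis-specific strand exchange recombinase, was at 67.7, 75.7 and 93.8 CPM in T99N and at 1111, 1048 and 1036 CPM in wild type. It was lower by 3.75 on the log2 scale (SE 0.19, adjusted p = 2.6e-12, edgeR), a 13.5-fold difference with no overlap. *MEI5* (YPL121C), whose product helps load Dmc1, was at 20.6, 18.6 and 37.4 CPM in T99N and at 232, 213 and 667 CPM in wild type, a log2 fold change of −3.85 (SE 0.42, adjusted p = 1.1e-07, edgeR), and −3.12 without the library labelled wild-type replicate 3. Its partner *SAE3* had a log2 fold change of −3.25. *HOP2* (−2.74) and *MND1* (−2.76), which form a complex that promotes strand exchange by Dmc1, and *HED1* (−2.77), a meiosis-specific recombination gene, fell by similar amounts.

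Most genes of the break-forming proteins were lower as well. *SPO11*, which encodes the protein that cuts the DNA, was at 18.6, 28.1 and 19.7 CPM in T99N and at 102, 92.7 and 70.9 CPM in wild type, a log2 fold change of −2.0. Its partners *REC102* (−2.14), *REC104* (−2.26), *MEI4* (−2.53) and *REC107* (−1.04) were called lower, while *REC114* was not called (0.22, adjusted p = 0.42, edgeR) and its groups overlapped. *MER1* (YNL210W), a meiotic splicing activator, was at 6.16, 4.21 and 5.93 CPM in T99N and at 54.7, 74.4 and 69.4 CPM in wild type, a log2 fold change of −3.60 (SE 0.26). Introns of *REC107* and other meiotic genes are known to need Mer1, and splicing was not measured here. *MSH4* (−3.15) and *MSH5* (−2.47), which stabilize crossover intermediates, were also lower. Among the general repair genes, the differences were smaller: *RAD54* fell by 1.12, *XRS2* by 0.60, *MRE11* by 0.48 and *RAD50* by 0.38.

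Chromosome axis and synaptonemal complex genes were lower in 13 of 15 cases, with 0 higher and a median log2 fold change of −1.52. *HOP1* (YIL072W), an axis protein that recruits Mek1, was at 58.7, 58.6 and 86.1 CPM in T99N and at 1693, 1985 and 1655 CPM in wild type. Its log2 fold change of −4.71 (SE 0.22, adjusted p = 7.1e-13, edgeR) is a 26.2-fold difference. *REC8* (YPR007C), the meiotic kleisin of cohesin, was at 164, 256 and 199 CPM in T99N and at 1893, 2282 and 2201 CPM in wild type, a log2 fold change of −3.36 (SE 0.30, adjusted p = 7.3e-09, edgeR). *RED1* (−2.95), the third axis protein, and *ZIP1* (−2.62), which forms the transverse filaments between paired chromosomes, were lower too.

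The general cohesin subunits *SMC1* (−1.01), *SMC3* (−1.22) and *IRR1* (−1.31) fell less than *REC8*. *ZIP2* (−0.13, adjusted p = 0.52, edgeR) and *SPO16* (−0.66, adjusted p = 0.077, edgeR) were not called. In *SPO16* the library labelled wild-type replicate 3 was the highest, at 512 CPM against 231 and 217 CPM in replicates 1 and 2, while T99N held 171, 155 and 283 CPM.

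**Figure D3:**
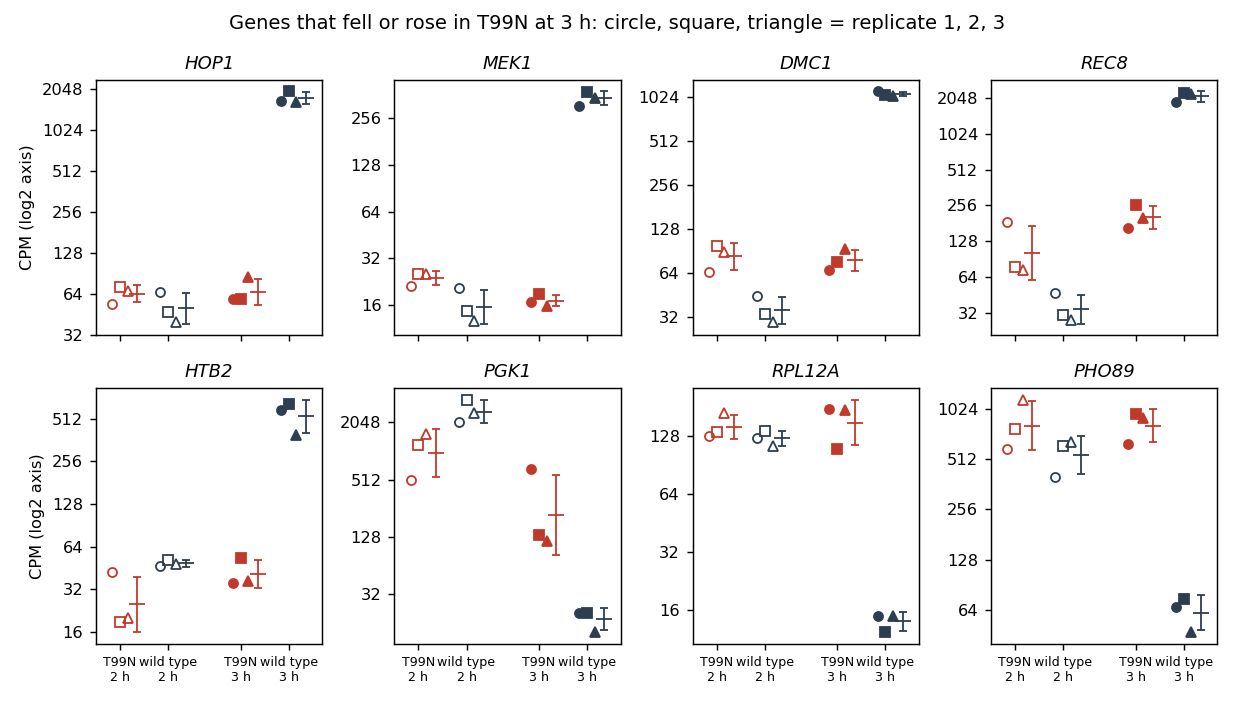
CPM of 8 genes on log2 axes, T99N left of wild type at 2 h (open) and 3 h (filled), with circle, square and triangle for replicates 1, 2 and 3 and the geometric mean with 1 SD on the log2 scale (n = 3). *HOP1*, *MEK1*, *DMC1*, *REC8* and *HTB2* are lower in every T99N library than in every wild-type library at 3 h. *PGK1*, *RPL12A* and *PHO89* are higher in every T99N library at 3 h.

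Regulators of meiosis were lower in 8 of 15 cases and higher in 0 (median −0.51), against 29.4% lower over all features. *IME2* (YJL106W), the kinase induced by Ime1 and Ume6 that promotes premeiotic S phase, was at 287, 233 and 261 CPM in T99N and at 1743, 1969 and 1576 CPM in wild type. It was lower by 2.76 on the log2 scale (SE 0.20, adjusted p = 3.7e-10, edgeR), with no overlap. *SLZ1*, a cofactor of Ime4 in RNA methylation, was lower by 2.11, *AMA1*, a meiotic activator of the anaphase-promoting complex, by 1.89, and *SPO13*, which keeps sister chromatids together at the first division, by 1.82. *NDT80*, the activator of the middle genes, was at 42.2, 40.9 and 46.0 CPM in T99N and at 44.1, 38.6 and 43.9 CPM in wild type, and its log2 fold change of 0.03 was not called (adjusted p = 0.90, edgeR).

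Of the 26 middle sporulation genes tested, which act in the divisions and spore formation, 9 were lower and 2 higher (median −0.46), against 29.4% lower over all features, and 5 were lower without T99N replicate 2. *MPC54*, a spindle pole body protein needed for the spore membrane, was at 82.9, 93.7 and 115 CPM in T99N and at 332, 366 and 482 CPM in wild type (−2.01, SE 0.17). *SPO74*, another protein of that structure, went the other way, with 9.95, 11.8 and 18.1 CPM in T99N and 2.25, 1.34 and 6.54 CPM in wild type. Its log2 fold change of 2.03 (adjusted p = 9.2e-04, edgeR) was 1.08 and not called against the library labelled wild-type replicate 3 alone. The summed level of 11 division and spore markers was 289 to 344 CPM in T99N and 643 to 784 CPM in wild type. *MPC54* and *CLB3* had the highest levels among them in both strains. Of the 11, 3 were called lower and 0 higher, against 29.4% lower over all features. At 5 of the 11, *MPC54*, *CLB3*, *SPS4*, *SPS1* and *SPO20*, every T99N library lay below every wild-type library, against 28.1% of all features. *CLB3*, a B-type cyclin, was at 68.6 to 93.1 CPM in T99N and 135 to 166 CPM in wild type. *SPS1* (4.32 to 5.09 CPM in T99N, 5.69 to 7.89 CPM in wild type) and *SPO20* (13.1 to 19.3 and 19.9 to 26.3 CPM) were separated only narrowly.

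Histone genes, of which the core ones are transcribed with DNA replication, were lower in T99N: 9 of 10 fell and 0 rose, with a median log2 fold change of −1.91. *HTB2* (YBL002W), a copy of histone H2B, was at 35.5, 52.9 and 36.5 CPM in T99N and at 594, 652 and 393 CPM in wild type. Its log2 fold change was −3.71 (SE 0.29, adjusted p = 1.1e-09, edgeR), a 13.1-fold difference. The neighboring H2A gene *HTA2* (−3.54), *HHT1* (−3.54) and *HHF1* (−3.39), which encode H3 and H4, fell similarly, while the second copies fell less: *HTA1* by 1.84, *HTB1* by 1.97 and *HHT2* by 1.00. Copies of a histone gene are nearly identical in coding sequence, so that reads may be split between them in an unknown way. The variant *HTZ1* was not called (−0.28, adjusted p = 0.099, edgeR).

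DNA replication genes were lower in 29 of 35 cases, with 1 higher and a median log2 fold change of −1.14. *CLB6*, a cyclin of S phase, was at 6.81, 7.09 and 5.51 CPM in T99N and at 36.6, 37.8 and 35.6 CPM in wild type (−2.50, SE 0.22), and the other S phase cyclin, *CLB5*, was lower by 2.03. *RNR1*, the large subunit of ribonucleotide reductase, was at 263, 390 and 283 CPM in T99N and at 1582, 1950 and 1232 CPM in wild type (−2.35, SE 0.32). Polymerase subunits *POL1* (−1.99) and *POL2* (−1.51), the clamp *POL30* (−1.81) and the single-strand binding subunit *RFA2* (−1.91) were lower. Of the MCM helicase, *MCM2* (−0.92), *MCM4* (−0.68), *MCM5* (−0.46) and *MCM6* (−0.80) were called lower and *MCM3* and *MCM7* were not (−0.11 and −0.06). *RNR4*, a small subunit of the reductase, was the only gene of the list that was higher (0.57). A URS1 core within 500 bp upstream was found at 2 of these 35 genes (5.71%), near the 9.38% of all coding sequences, and at 2 of the 10 histone genes.

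Of 16 genes of the mitotic cell cycle, 9 were lower and 3 higher (median −0.55), against 29.4% lower and 27.6% higher over all features. *NRM1*, a corepressor of G1/S genes, was at 11.9, 9.85 and 12.3 CPM in T99N and at 52.2, 52.3 and 78.8 CPM in wild type (−2.42). *CLN3*, the G1 cyclin that promotes entry into the mitotic cycle, was in contrast at 325, 211 and 215 CPM in T99N and at 31.0, 33.4 and 53.6 CPM in wild type (2.67, SE 0.25, adjusted p = 1.1e-08, edgeR). The 6 mitotic markers summed to 183 to 242 CPM in T99N and 174 to 205 CPM in wild type, with 2 lower and 1 higher. The 12 haploid markers summed to 304 to 375 CPM in T99N and 255 to 283 CPM in wild type, with 3 lower and 3 higher, and none of these markers was at 0 in any of the 6 libraries. The part of other cell types in the results was not tested.

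Among all coding sequences, the 10 largest falls with no overlap also held *HRT1* and *MNE1*. *HRT1* (YOL133W), a ubiquitin ligase subunit, was at 1.83, 0 and 0 CPM in T99N and at 31.0, 33.0 and 9.07 CPM in wild type, a log2 fold change of −5.42 (SE 0.99, adjusted p = 8.3e-05, edgeR). It was as low in T99N at 2 h. Levels were then 2.23, 0 and 0 CPM in T99N and 29.1, 36 and 25.3 CPM in wild type. The *HRT1* coding sequence overlaps the extension region of *MED7* on the opposite strand. *MNE1* (YOR350C), a mitochondrial splicing factor gene next to *MEK1*, was at 77.3, 56.2 and 66.3 CPM in T99N and at 953, 778 and 708 CPM in wild type (−3.61, SE 0.20). Its locus also has an extension region, so these counts take the extended and the shorter transcript together. The region had a log2 fold change of −2.60, and −0.96 without the library labelled wild-type replicate 3, where it was not called (adjusted p = 0.15, edgeR).

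Enzymes of glycolysis, the pathway from glucose to pyruvate, were among the largest rises. Of 22 genes of glycolysis and fermentation, 20 were higher in T99N and 1 was lower, with a median log2 fold change of 2.39, against 27.6% higher over all features. *PGK1* (YCR012W), phosphoglycerate kinase, was at 663, 135 and 118 CPM in T99N and at 20.4, 20.5 and 12.9 CPM in wild type. It was higher by 4.08 on the log2 scale (SE 0.54, adjusted p = 1.8e-06, edgeR), with T99N replicate 1 well above the others. *FBA1* (3.82), aldolase, *GPM1* (3.66), phosphoglycerate mutase, *TDH3* (3.61), a glyceraldehyde-3-phosphate dehydrogenase, and *ENO1* (3.56), an enolase, were likewise highest in T99N replicate 1. Without that library the log2 fold changes were smaller but still called, at 2.85 for *PGK1*, 2.88 for *FBA1*, 2.01 for *GPM1*, 2.18 for *TDH3* and 2.05 for *ENO1*. *TDH3* was at 3034, 505 and 462 CPM in T99N and at 134, 147 and 45.8 CPM in wild type. The *TDH* and *ENO* genes have close copies, between which reads may be split. Without T99N replicate 1, 18 of the 22 were higher and the median was 1.63. *PDC5*, a minor pyruvate decarboxylase, was the 1 gene that was lower (−1.31).

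At 2 h the levels of *PGK1* had been 505, 1187 and 1527 CPM in T99N and 2074, 3540 and 2553 CPM in wild type, far above those at 3 h in both strains except in T99N replicate 1. The median strain difference of the glycolysis list at 2 h was −1.06, and 12 of its genes were lower in T99N at 2 h and higher at 3 h. *TKL2*, a transketolase of the pentose phosphate pathway (3.55), and *YRO2*, a membrane protein gene (3.66), were among the largest rises and were also highest in T99N replicate 1, without which they were 3.06 and 2.41. *TKL2* was at 772, 320 and 339 CPM in T99N and at 37.1, 44.1 and 40.5 CPM in wild type.

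Ribosomal protein genes were higher in T99N in 90 of 104 cases and lower in 3, with a median log2 fold change of 1.75. *RPL12A* (YEL054C) was at 177, 110 and 175 CPM in T99N and at 14.8, 12.2 and 14.9 CPM in wild type. It was higher by 3.47 on the log2 scale (SE 0.18, adjusted p = 2.8e-12, edgeR), an 11.1-fold difference. *RPP1B*, a stalk protein of the large subunit, was at 197, 91.8 and 157 CPM in T99N and at 12.6, 11.6 and 15.4 CPM in wild type (3.49, SE 0.25). The 3 that fell were *RPL15B* (−1.51), *RPS28A* (−1.26) and *RPP1* (−0.69), of which *RPP1* encodes a subunit of RNase P and entered the list through its symbol. Many ribosomal proteins have a nearly identical second gene, so the share of each copy is uncertain. At 2 h the list had a median of −0.95, and 81 of its genes were called lower in T99N at 2 h and higher at 3 h.

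Ribosome biogenesis factors, which process and assemble rRNA, were higher in 37 of 46 cases and lower in 1 (median 1.00). *NOP58* (2.34) and *NOP56* (2.32), core proteins of the box C/D particles that methylate rRNA, rose the most, and *RRP9* (−1.39) was the 1 that fell. At 2 h the list had a median of 0.06, unlike the ribosomal protein genes.

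**Figure D4:**
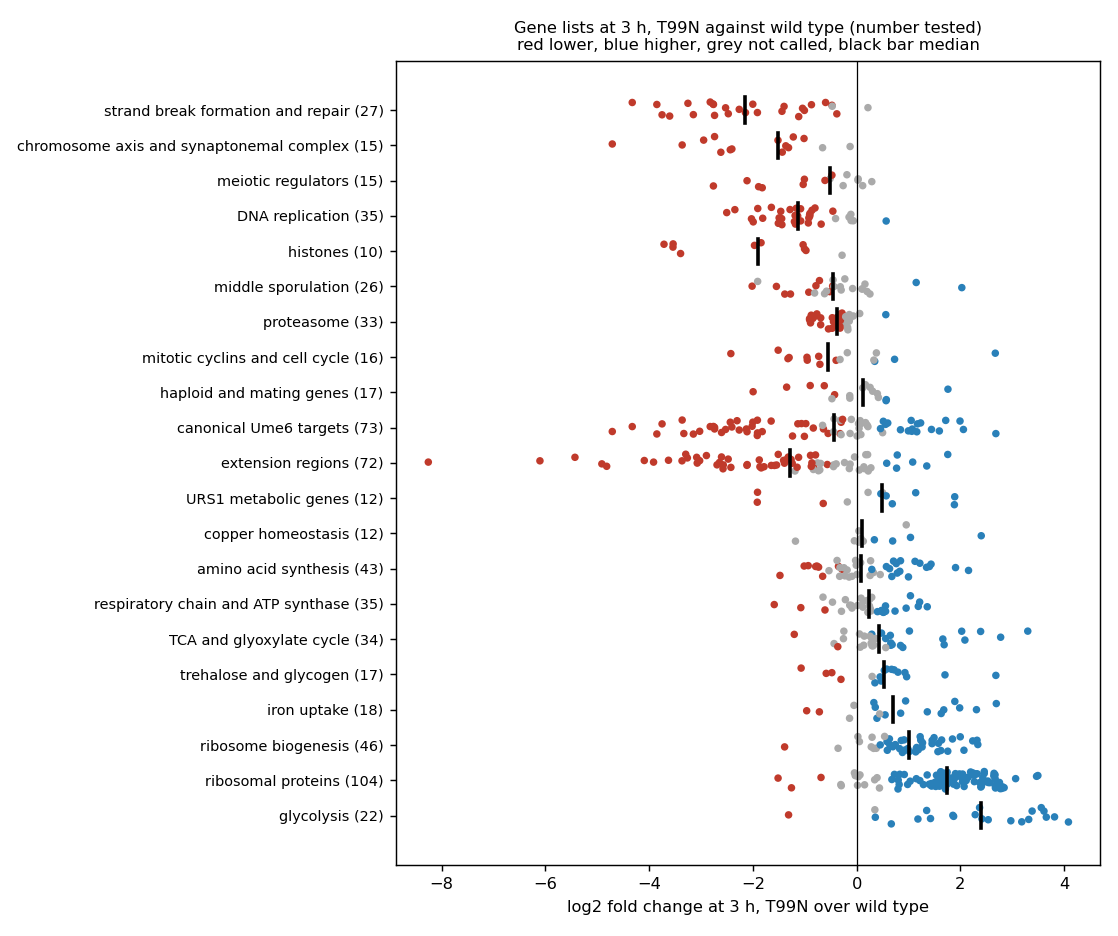
Log2 fold change at 3 h (T99N over wild type, x axis) of each member of 21 gene groups, with the number tested in parentheses. Red points were called lower, blue points higher, grey points not called (edgeR, adjusted p 0.05), and the black bar is the median. Strand break genes center on −2.14 and glycolysis on 2.39.

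Of 34 genes of the TCA and glyoxylate cycles and gluconeogenesis, which let cells grow on acetate, 17 were higher in T99N and 2 lower, with a median log2 fold change of 0.42. *PCK1* (YKR097W), phosphoenolpyruvate carboxykinase, was at 2546, 1295 and 1449 CPM in T99N and at 173, 166 and 199 CPM in wild type (3.30, SE 0.30, adjusted p = 7.3e-09, edgeR). *FBP1* (2.78, and 2.08 without T99N replicate 1), fructose bisphosphatase, *MLS1* (2.09) and *ICL1* (1.69), the enzymes of the glyoxylate shunt, and the carriers *SFC1* (2.39) and *JEN1* (1.66) rose as well. Of the TCA enzymes themselves, *SDH2* (0.06), *LSC2* (0.07) and *IDH1* (0.15) were not called, and *CIT3*, a mitochondrial citrate synthase, was lower by 1.2. Of 35 respiratory chain and ATP synthase genes 13 were higher and 3 lower (median 0.25), against 27.6% higher over all features, with *QCR7* at 1.36. The number lower was 6 without the library labelled wild-type replicate 3 and 1 to 2 without any other replicate. *COX7*, *ATP18* and *COX12*, the 3 lower ones, are short genes in which the library labelled wild-type replicate 3 stood near T99N. *COX7* was at 11.7, 13.1 and 8.69 CPM in T99N and at 51.9, 37.8 and 10.1 CPM in wild type, and against that library alone its log2 fold change was 0.19, in place of −1.59.

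Reserve carbohydrate genes were higher in 12 of 17 cases and lower in 4 (median 0.53), against 27.6% higher and 29.4% lower over all features. *GPH1*, glycogen phosphorylase, was at 737, 457 and 458 CPM in T99N and at 91.6, 92.6 and 72.7 CPM in wild type (2.68, SE 0.29), and *GSY2*, glycogen synthase, was higher by 1.70. *ACC1* (1.89), *FAS1* (1.88) and *FAS2* (1.14), of fatty acid synthesis, were higher. These are in a list of 12 metabolic genes with known URS1 elements. Of the 12, 6 were higher and 3 lower (median 0.48), against 27.6% and 29.4% over all features. In the same list the arginase *CAR1*, a classical URS1 gene, was lower, at 142, 192 and 112 CPM in T99N and 538, 706 and 435 CPM in wild type (−1.92), and so was *INO1*, inositol phosphate synthase (−1.91).

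*PHO89* (YBR296C), a sodium and phosphate cotransporter, was at 629, 946 and 893 CPM in T99N and at 67.1, 74.5 and 47.2 CPM in wild type (3.71, SE 0.32, adjusted p = 3.4e-09, edgeR). *TAT1* (YBR069C), an amino acid permease, was at 330, 426 and 333 CPM in T99N and at 25, 32.4 and 27.1 CPM in wild type (3.68, SE 0.23, adjusted p = 6.6e-11, edgeR). Of 18 iron uptake genes 13 were higher and 2 lower (median 0.70). *SIT1*, a siderophore transporter, was at 3324, 3215 and 2579 CPM in T99N and at 452, 503 and 455 CPM in wild type (2.69, SE 0.20), *ARN2* was higher by 2.31, and *FET3*, the iron oxidase of the plasma membrane, by 1.89. *PHO89*, *TAT1* and *SIT1* showed no overlap between the strains.

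Copper genes, of interest since copper was the inducer, were mostly not called: 4 of 12 were higher and 0 lower, with a median of 0.11, against 27.6% higher over all features. Without T99N replicate 1, 1 was higher and 1 lower. *CUP1-2*, a copper metallothionein gene, was at 296, 614 and 454 CPM in T99N and at 1504, 1188 and 398 CPM in wild type, with overlapping groups (−1.18, adjusted p = 0.18, edgeR). The copper transporter *CTR3* was at 375, 35.5 and 25.1 CPM in T99N and at 28.0, 28.9 and 25.2 CPM in wild type, and its log2 fold change of 2.40 was 0.18 without T99N replicate 1 (adjusted p = 0.62, edgeR). *SOD1*, the copper and zinc superoxide dismutase, was higher by 1.04.

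Other groups moved less or in both directions, and their counts stand against 29.4% lower and 27.6% higher over all features. Proteasome genes were lower in 22 of 33 cases and higher in 1 (median −0.37). *RPN6* (−0.91) fell the most, and *RPN4*, the activator of proteasome genes, was the 1 higher (0.56). The count of lower proteasome genes was 13 without T99N replicate 1 and 6 with the library labelled wild-type replicate 3 as the only wild-type one. Of 28 heat shock genes 13 were lower and 7 higher (median −0.14), with *HSP82* at −1.08 and *HSP12* at 1.88. Amino acid synthesis genes were lower in 9 and higher in 17 of 43 cases (median 0.08), with the methionine enzymes *MET6* (2.16) and *MET17* (1.91) leading the rises. Of 17 haploid and mating genes 5 were lower and 3 higher (median 0.12), against 29.4% lower over all features. *AGA2*, an agglutinin subunit, was lower (−2.0), and *STE18*, a G protein subunit, was at 59.2, 47.9 and 85.4 CPM in T99N and at 7.18, 4.81 and 45.9 CPM in wild type, a log2 fold change of 1.76 that was not called against the library labelled wild-type replicate 3 alone (0.53) and was 3.43 without it. Of 15 partners of Ume6 in repression 3 were lower and 3 higher (median −0.06): *RPD3*, the deacetylase, had a log2 fold change of −0.50, *SIN3*, its scaffold, −0.18 without a call, and *ITC1*, of the Isw2 complex, 1.13.

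The 73 canonical Ume6 targets, a list of earlier known targets that the study uses, moved in both directions. In all, 38 were lower and 18 higher (median log2 fold change −0.44), against 29.4% lower and 27.6% higher over all features. The lower ones were led by *HOP1*, *MEK1*, *MEI5*, *DMC1* and *REC8*, and those that rose the most were *GPH1* (2.68) and *FMP16*, a mitochondrial protein gene, at 480, 335 and 382 CPM in T99N and 87.7, 89.9 and 110 CPM in wild type (2.06). *SSA3* (1.72), a stress-induced chaperone gene, was also higher. At 2 h the list had a median of 0.43, and 23 of the targets were higher in T99N at 2 h and lower at 3 h. With library totals alone 43 were lower and 13 higher at 3 h.

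Ume6 peaks came from ChIP-seq of a different strain in saturated pre-sporulation culture, called by the authors with MACS2 on each of 3 replicates. A promoter was taken as bound where a summit with a fold enrichment above 4 lay within 300 bp of the start site in at least 2 replicates. Of the canonical targets, 43 were bound by this rule, of which 32 were lower and 1 higher at 3 h (median −1.92). Of the 26 that were not, 6 were lower and 14 higher (median 0.49). Over all coding genes sorted by this rule the groups were much closer: 243 of 686 bound genes were lower (35.4%) and 188 higher (27.4%), against 1200 (28.1%) and 1190 (27.8%) of 4276 that were not bound. Above a fold enrichment of 10, 45% of the 313 bound coding genes were lower and 18.5% higher. Coding genes without a mapped start site and those of the extension loci were not sorted, also among the canonical targets.

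URS1 cores were counted in the same groups. They were found within 500 bp upstream of 54 of the 73 canonical targets (74%), 13 of 27 strand break genes (48.1%) and 7 of 15 axis genes (46.7%). They were found at 209 of 1569 coding sequences called lower (13.3%), 125 of 1508 called higher (8.29%) and 174 of 2339 not called (7.44%). Of the groups that rose, 17 of 104 ribosomal protein genes (16.3%) and 2 of 22 glycolysis genes (9.09%) had the core. A match is a description of these letters in S288C and not a measured site.

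The 74 extension regions cover the sequence that a 5′-extended transcript adds upstream, while the coding sequence that follows each of them counts reads from the extended and the shorter transcript together. The study picked these loci for distal start sites whose use increased on entry into meiosis, so the list is not independent evidence of its direction in T99N. Of the regions 5 also overlap another feature on the same strand and 19 one on the opposite strand, at some loci another extension region. Of these 24 regions 17 were lower and 2 higher. Of the 72 tested, 46 were lower in T99N and 6 higher, with a median log2 fold change of −1.29, against 29.4% and 27.6% over all features. Without the library labelled wild-type replicate 3, 44 were lower, with a median of −1.11. *PLM2* and *COX16* had too few reads in the region to be tested. Of the 53 tested regions with a Ume6 peak at the distal start site, 38 were lower and 2 higher (median −1.79), and of the 19 without, 8 were lower and 4 higher (median −0.75).

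The region of *SWI4*, a G1/S transcription factor, lies at chrV:405565-406190 (minus strand) in the SK1 assembly of the files. It was at 5.89, 7.21 and 9.11 CPM in T99N and at 121, 93.4 and 62.0 CPM in wild type, a log2 fold change of −3.63 (SE 0.30, adjusted p = 2.3e-09, edgeR). Its coding sequence fell less, with 185, 158 and 176 CPM in T99N and 451, 385 and 463 CPM in wild type (−1.32). The region of *NDC80*, an outer kinetochore subunit, lies at chrIX:67896-68352 (plus strand) and was at 9.69, 9.97 and 15.6 CPM in T99N and at 23.1, 21.5 and 56.7 CPM in wild type. Its log2 fold change was −1.51 (SE 0.33, adjusted p = 5.3e-04, edgeR), and −0.92 without the library labelled wild-type replicate 3, with −0.89 in the coding sequence.

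The region of *APL4*, a subunit of the clathrin adaptor AP-1, was at 2.36, 2.04 and 1.59 CPM in T99N and at 15.1, 12.6 and 9.56 CPM in wild type (−2.64), and its coding sequence was at −1.12. For *HSP60*, the mitochondrial chaperonin, the region was lower (−1.88) and the coding sequence higher (0.27), and for *MSC6* the values were −2.11 and −0.43. The region of *CDC60*, the cytosolic leucyl-tRNA synthetase, depended on a single library. It was at 12.4, 9.37 and 12.3 CPM in T99N and at 5.69, 7.62 and 27.2 CPM in wild type, a log2 fold change of −0.23 that was not called (adjusted p = 0.67, edgeR), and 0.77 without the library labelled wild-type replicate 3 (adjusted p = 0.077, edgeR).

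The largest falls were in regions with hardly a read in T99N. The region of *ULP2*, a SUMO protease gene (chrIX:276945-277075, plus strand), had 0 reads in all 3 T99N libraries and 201 reads in wild type, at 4.80, 4.10 and 1.55 CPM. With a floor of 3 reads over the T99N group this is at least 29.5-fold lower. Its coding sequence was at 110, 122 and 180 CPM in T99N and at 1150, 873 and 877 CPM in wild type (−2.81, SE 0.20). The region of *PMT3*, a protein mannosyltransferase gene, had 1 read in T99N and 198 in wild type, which is 91.5-fold lower in T99N with an exact 95% counting interval of 16.2 to 3630. Likewise *SKI7*, an exosome cofactor, had 1 and 119 reads (55.0-fold, 9.68 to 2189), *ITR2*, an inositol transporter, 1 and 84 (38.8-fold, 6.78 to 1551) and *CFT2*, a cleavage factor subunit, 2 and 140 (32.3-fold, 8.79 to 269.6). These intervals cover counting error only, and the regions of *PMT3*, *SKI7* and *CFT2* overlap a feature on the opposite strand.

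Only 6 regions were higher in T99N, led by those of *YDR222W* (1.76, adjusted p = 0.023), *TNA1*, a nicotinic acid transporter gene (1.35, adjusted p = 0.0052), and *MED7*, a Mediator subunit gene (1.08, adjusted p = 0.0051, all edgeR). The *MED7* region was at 215, 198 and 302 CPM in T99N and at 91.0, 69.8 and 178 CPM in wild type. The number higher was 2 without wild-type replicate 2 and 3 without T99N replicate 3, and *YDR222W* was not called without T99N replicate 3 or wild-type replicate 1 or 2. In all 3 the library labelled wild-type replicate 3 was the highest wild-type library, and against it alone none of the 3 was called. The same 3 regions had been higher in T99N at 2 h, by 2.82, 1.81 and 1.82.

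At 58 of the 72 tested loci the log2 fold change of the extension region was below that of its coding sequence. Where the region was lower, the coding sequence was lower at 28 loci, higher at 10 and not called at 8. The loci with opposite directions included the ribosomal protein genes *RPL38*, with a region at 4.58, 4.69 and 5.93 CPM in T99N and 16.3, 13.6 and 10.5 CPM in wild type (−1.41) and a coding sequence at 64, 43 and 58.7 CPM in T99N and 17.3, 9.25 and 14.4 CPM in wild type (2.03), and *RPL28* (−1.24 and 1.36). *HMG1*, an HMG-CoA reductase gene (−0.89 and 1.43), and *SAM3*, a permease gene (−0.57 and 1.28), had the same pattern. Of the coding sequences of all 74 loci, 39 were lower and 19 higher, with a median of −0.38, against 29.4% lower and 27.6% higher over all features. The strand setting of the counting is not stated, and 19 regions overlap a feature on the opposite strand. Of these 14 were lower and 1 higher, and of the 53 tested regions without such an overlap 32 were lower and 5 higher.

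**Figure D5:**
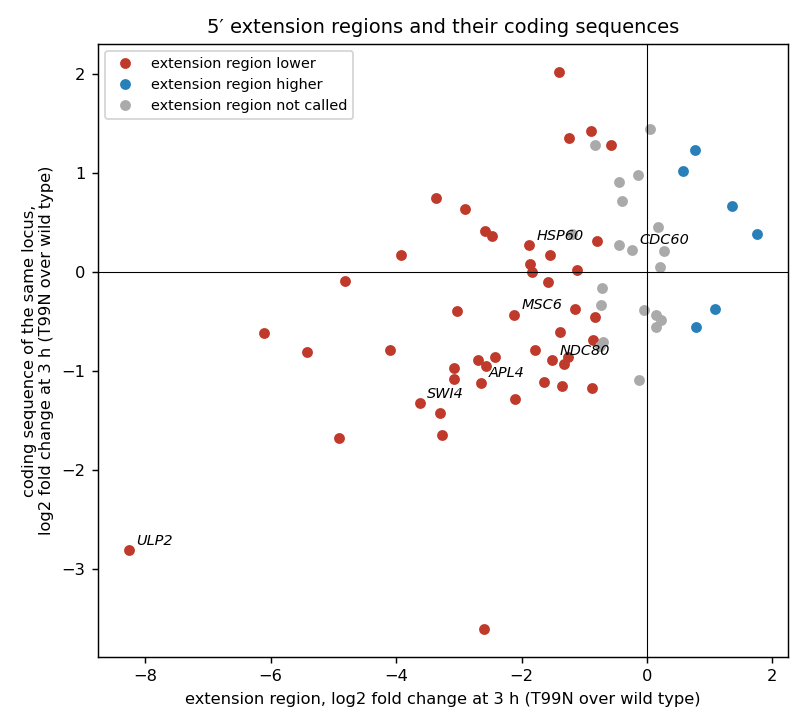
Log2 fold change at 3 h (T99N over wild type) of the extension region (x axis) and of the coding sequence of the same locus (y axis), 1 point a locus (72 tested). Lines mark 0 on each axis, red, blue and grey mark regions called lower, called higher and not called, and the fitted value of *ULP2* (0 T99N reads) is no bound. Most points lie left of 0, with 46 red and 6 blue, and at 10 of the red points the coding sequence was called higher.

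The strains already differed at 2 h, before copper by the labels, and the direction often turned. The 2 h group of T99N includes replicate 1, which had high *IME1*, *IME4* and *CUP1-2* at that time. At 2 h 1147 features were lower in T99N (20.9%) and 1151 higher (21%). Of the features that were higher at 2 h, 260 were lower at 3 h and 392 still higher, and of those lower at 2 h, 322 were higher at 3 h and 371 still lower. Another 984 features were called lower and 800 higher at 3 h without a call at 2 h. The strain difference at 3 h was lower than that at 2 h for 1201 features and higher for 1204 (21.9% each, interaction in edgeR).

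Meiotic genes were among those that turned. The strand break list had a median of 0.97 at 2 h, and 17 of its genes were higher in T99N at 2 h and lower at 3 h. *DMC1* was at 65.5, 98.2 and 89.6 CPM in T99N and at 45.0, 33.6 and 29.9 CPM in wild type at 2 h. *HOP1* had hardly differed at 2 h, at 54.5, 71.7 and 67.7 CPM in T99N and 66.6, 47.5 and 40.0 CPM in wild type (0.33, adjusted p = 0.17, edgeR), and its interaction was −5.04 (SE 0.28, adjusted p = 2.9e-11, edgeR). The T99N levels of *HOP1* and *DMC1* at 3 h overlapped those at 2 h, and the wild-type levels at 3 h lay above those at 2 h with no overlap. The extension regions had a median of 0.78 at 2 h, and 16 were higher in T99N at 2 h and lower at 3 h. The *SWI4* region was at 5.44, 2.64 and 2.65 CPM in T99N and at 1.49, 0.279 and 0.558 CPM in wild type at 2 h. Its interaction was −5.88 (SE 0.55, adjusted p = 2.5e-08, edgeR). Of the 10 histone genes 7 were lower in T99N at both times, and their median at 2 h was −0.72. The difference in time and the copper added between the times cannot be told apart.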

How the data were processed

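The authors prepared libraries with a directional mRNA kit, sequenced 150 bp single-end reads and assigned them with Salmon to SK1 coding sequences and extension regions. The deposited values are expected counts per feature, of which 96.2% to 97.1% per library were whole, and all were rounded. The deposited TPM values, made by the authors with Salmon from the same reads and feature lengths, were not used for tests. The strand setting is not given in the sources used here. Coordinates are those of the SK1 assembly in the feature names, and URS1 sequences come from R64 of RefSeq. The deposited MACS2 peak lists (2039, 2082 and 2028 peaks) give a fold enrichment, a ratio of ChIP over background, per replicate, and the deposited −log10 of p and q in them was not used as a result. Another 18 columns of transcript leader sequencing were not used, and tables with the authors' own fold changes were not used.

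All 24 libraries of both strains at 0, 2, 3 and 4 h were fitted as 8 groups with edgeR 4.0.16 (R 4.3.3) after filterByExpr, with TMM normalization, quasi-likelihood tests and Benjamini-Hochberg adjustment over all 5488 tested features, so that all groups share the estimate of the spread. The contrast was T99N minus wild type at 3 h, and the interaction was this difference minus that at 2 h. Standard errors are the log2 fold change over the square root of F. None of the 6 pairs of 3 h libraries of 1 strain agreed within sampling noise (chi-square per degree of freedom from 27.6 to 112.9). On simulated counts for 5487 features, edgeR recovered 97% of 100 features changed 2-fold and 100% of 100 changed 4-fold, with 5.29% of 208 calls false. With DESeq2, 9.59% of 219 calls were false. Only these features differed between the simulated strains at 3 h, equally up and down, and no simulated library stood apart. The simulation therefore does not give the error rate of the real comparison, in which 57% of features were called. The named genes are *IME1*, *IME4* and *UME6*, the 10 largest falls and 10 largest rises of coding sequences with separate groups and at least 10 CPM in the higher group, the 2 largest called changes of each list, the 4 largest falls and 2 largest rises of canonical targets, and among extension regions the 5 largest falls, the 3 largest rises and 6 named by the study. All other genes were named after their values were seen, to describe their list. The gene lists and the comparison itself were chosen with earlier results of these data known. Alternatives were no TMM, DESeq2 1.42.0, no filter, the 6 libraries alone, libraries thinned to the shallowest total, a replicate block, a fold threshold and leaving out each replicate; 3 more were chosen after seeing the data (the library labelled wild-type replicate 3 alone, and replicates left out at more than 1 time).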

Additional observations from a re-analysis of the deposited data

Results flagged for a closer look

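For 59 of the 72 named genes and regions, the strain difference at 3 h differed from that at 2 h in an interaction test (edgeR, adjusted p under 0.05 over all features). Over all features the interaction was called lower for 21.9% and higher for 21.9%. Most named genes were picked for large strain differences at 3 h, which the interaction uses again. The count and the signs are therefore not independent of that choice. The values below are the strain difference at 3 h minus that at 2 h, on the log2 scale. A negative value means that T99N relative to wild type was lower at 3 h than at 2 h. By itself it does not mean a lower level in T99N at 3 h: the *CDC60* region (−3.87) was not called at 3 h (−0.23).

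Meiotic and replication genes had negative values. These were −5.04 for *HOP1*, −5.04 for *REC8*, −4.92 for *MEK1*, −6.05 for *MEI5*, −4.97 for *DMC1* and −4.89 for *MER1*. Among regulators and later genes they were −3.73 for *IME2*, −3.97 for *SLZ1*, −3.06 for *UME6* and −3.33 for *MPC54*. In the cell cycle and replication lists they were −2.82 for *CLB6*, −2.17 for *RNR1*, −2.53 for *NRM1*, −2.87 for *HTB2*, −2.54 for *HTA2* and −1.52 for *HHT1*. Other negative values were −3.68 for *MNE1*, −3.55 for *AGA2*, −1.38 for *CAR1*, −1.48 for *INO1* and −0.54 for *RPN6*.

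Extension regions were negative throughout the flagged set. The values were −5.88 for the region of *SWI4*, −3.93 for *NDC80*, −3.07 for *APL4*, −3.36 for *HSP60*, −3.80 for *MSC6* and −3.87 for *CDC60*. They were −6.24 for *ITR2* (SE 1.44), −6.18 for *PMT3* (SE 1.41), −5.48 for *SKI7* (SE 1.76) and −5.24 for *CFT2* (SE 1.77). These 4 regions had 1 or 2 reads over the T99N libraries at 3 h. At 2 h, in the same order, they had 4, 9, 3 and 3 reads in T99N and 2, 12, 4 and 3 in wild type. The sizes of these fitted values are therefore uncertain.

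Metabolic and ribosomal genes had positive values. In glycolysis and related carbon metabolism they were 5.66 for *TDH3*, 5.43 for *PGK1*, 5.33 for *FBA1*, 5.06 for *ENO1*, 4.81 for *GPM1*, 3.95 for *TKL2*, 2.43 for *PCK1*, 2.76 for *FBP1*, 3.02 for *GPH1* and 1.16 for *GSY2*. For translation they were 3.27 for *RPL12A*, 3.27 for *RPP1B*, 1.14 for *NOP56*, 1.06 for *NOP58* and 2.66 for the ribosome-bound chaperone *SSB1*. Uptake genes had 4.07 (*TAT1*), 3.11 (*PHO89*), 2.76 (*SIT1*), 2.22 (*ARN2*) and 2.26 (*CTR3*). The rest were 4.47 for *YRO2*, 3.63 for *HSP12*, 3.21 for *MET17*, 2.55 for *MET6*, 2.28 for *FMP16*, 2.19 for *CLN3*, 1.79 for *SOD1* and 1.5 for *ASH1*, a repressor of *HO*.

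Of the 59, 58 were called with the same sign without the library labelled wild-type replicate 3 at 3 h (not *CTR3*), and 55 without T99N replicate 1 at both times (not *CTR3*, *RPN6* and the regions of *CFT2* and *SKI7*). With library totals alone 57 were called (not *NOP56* and *NOP58*), and with DESeq2 all 59.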

How the results depend on the processing

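The extension regions with the largest falls had 0 to 2 T99N reads. DESeq2 called 1660 features lower and 1544 higher and the fit of the 6 libraries alone 1287 and 1176. With library totals alone 845 features were higher, 3 extension regions were higher, and the interaction was lower for 2165 features and higher for 610. Leaving out 1 replicate at a time gave 1336 to 1651 features lower and 1306 to 1624 higher. Against the library labelled wild-type replicate 3 alone, chosen after seeing the data, 953 features were lower and 1 extension region was higher. With that replicate left out at 3 h and 4 h, also chosen afterwards, 10 extension regions were higher, and leaving out 1 replicate gave 2 to 8. A log2 fold change above 1 as a further requirement left 1047 features (491 lower, 556 higher), 3 higher extension regions, 261 calls summed over the gene lists (95 lower, 166 higher, against 174 and 250) and 1176 interactions (524 lower, 652 higher). With every library thinned to the shallowest total 3 extension regions were higher.

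Reversed values were those of the *CDC60* region, at −0.55 to 0.77 when 1 replicate was left out and 0.80 without wild-type replicate 3 at 3 h and 4 h (adjusted p = 0.034, edgeR), and of *COX7*, at 0.19 against wild-type replicate 3 alone. Among named genes *IME1* was called in the fit of the 6 libraries alone (1.47, adjusted p = 0.0064, edgeR) and without T99N replicate 1 at both times (1.79, adjusted p = 7.5e-06, edgeR). For none of these was the cause tested.

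Ume6 binding depended on its definition. With summits within 150 bp, 146 of 346 bound coding genes were lower (42.2%) and 62 higher (17.9%). Of 25 bound canonical targets 21 were then lower and 0 higher, and 1 of 38 bound extension regions was higher. With any fold enrichment, 292 of 1027 bound coding genes (28.4%), 4 of 60 extension regions and 2 of 48 canonical targets were higher. Above a fold enrichment of 10, 141 of 313 bound coding genes were lower (45%) and 58 higher (18.5%). Of 45 extension regions bound by that rule 0 were higher. With a peak in all 3 replicates 1 of 44 bound extension regions was higher, and leaving out a peak list gave 1 to 2.

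The replicate numbers were shared by the strains, but same-numbered libraries correlated in their deviations at 0.088, 0.51 and 0.36, and T99N replicate 1 did so best with wild-type replicate 2, so the numbers were not taken as pairs. With the replicate block 1650 features were lower and 1571 higher.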
